A study of Mus musculus with 9 samples.

Results

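Annexins are a family of calcium-dependent proteins that bind the negatively charged phospholipids of cell membranes, and 9 of their genes, *Anxa1* to *Anxa8* and *Anxa11*, were followed by total RNA sequencing in mouse embryonic stem cells (mESC) kept in 3 media. The 9 genes were chosen by name, with their normalised counts in these same samples in view, out of 12 annexin genes and 29069 genes with a row in the expression table. Their differences between media are therefore given as a description, with no test. The cells were the feeder-free mES-D3 line, held for 24 h in ground state medium (GS), differentiation medium (DM) or DM with a nitric oxide donor (NO), with 3 replicates per medium. GS was the serum-free N2B27-based NDiff medium with 1 µM of the MEK inhibitor PD0325901, 3 µM of the GSK-3 inhibitor CHIR99021 and 20 ng/mL of leukaemia inhibitory factor (LIF). DM was DMEM with 10% fetal bovine serum and without inhibitors or LIF, so that DM and GS differed in basal medium, serum, inhibitors and LIF together. NO was DM with 250 µM DETA/NO, from which nitric oxide is set free slowly. The labels do not say whether the replicates came from separate cultures, so p-values measure only the spread between these samples.

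Each annexin has a conserved core that docks onto membranes when calcium rises and a variable N-terminal tail that sets its partners, among them the small calcium-binding S100 proteins. Family members take part in sealing of torn membranes, in vesicle traffic and in the organisation of lipids below the plasma membrane. Some are also found outside the cell, where annexin A1 acts on formyl peptide receptors to limit inflammation, annexin A5 covers exposed phosphatidylserine, and annexin A2 with its partner S100a10 gathers plasminogen and its activator at the surface.

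Levels are in normalised counts, that is reads per gene corrected by the authors for sequencing depth. Their sums per sample lay between 18290445 and 20508679, and 14312996 to 27080407 assigned reads per sample were estimated from the spacing of low values. The lowest annexin value of the 9 genes, 87 normalised counts of *Anxa3* in GS replicate 3, stood for about 66 reads, for which counting error alone is 12.3%. All 9 genes passed the minimum mean of 5, as did 18156 genes in all. Pluripotency genes were abundant in all 9 samples, with a summed level of 10 markers between 45923 and 85620.

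The promoters of *Anxa8* and *Anxa11* are shown because these genes had the widest differences, *Anxa8* toward NO and *Anxa11* toward DM. Both sequences are the 250 bases before the RefSeq start site, GRCm38, plus strand, and neither overlaps an annotated exon. *Anxa8* lies at chr14:34085729-34085978 and *Anxa11* at chr14:25841905-25842154. CpG dinucleotides are in capitals.

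Anxa8: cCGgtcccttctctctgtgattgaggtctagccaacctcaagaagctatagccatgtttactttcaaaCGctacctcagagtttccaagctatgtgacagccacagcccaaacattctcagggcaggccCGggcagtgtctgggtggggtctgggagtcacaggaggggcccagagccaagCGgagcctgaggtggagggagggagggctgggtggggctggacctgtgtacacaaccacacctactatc

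Anxa11: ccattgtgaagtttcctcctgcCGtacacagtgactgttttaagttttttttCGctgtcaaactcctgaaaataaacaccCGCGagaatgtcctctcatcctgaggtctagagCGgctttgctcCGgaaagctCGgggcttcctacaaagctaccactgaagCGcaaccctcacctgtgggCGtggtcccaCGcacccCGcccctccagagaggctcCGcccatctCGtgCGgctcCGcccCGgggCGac

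The G and C content was 58.0% in both, against a median of 52.4% over the same window of all 32851 RefSeq promoters. The *Anxa8* window held 4 CpG dinucleotides and the *Anxa11* window 17, against a median of 6. Motifs were searched on both strands, namely TGANTCA, bound by AP-1, then CACCTG, the E-box type that Zeb1 binds, then GGAATG of the TEAD factors, the TATA box TATAAA, the GC box GGGCGG and the CCAAT box. No match of one motif overlapped a match of another. None of them was in the *Anxa8* window. The *Anxa11* window had 3 GC boxes, which 32.7% of all promoters hold at least once, and 1 CACCTG, 79 to 74 bases before the start, which 17.2% of all promoters hold. *Anxa7* also had CACCTG, at 2 places in 1 of its 2 windows, and the only AP-1 match among the annexins with an entry was in *Anxa2*. Entries were found for 7 of the 9 genes, that is all but *Anxa3* and *Anxa6*. These matches describe letters, and nothing about binding was measured in these samples.

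*Anxa8* showed the widest difference between media. Annexin A8 is a late endosome annexin known from squamous epithelium and for anticoagulant activity. The gene lies on chromosome 14, 34085981 to 34100571 (GRCm38, plus strand, ENSMUSG00000021950). In replicates 1, 2 and 3, *Anxa8* had normalised counts of 105, 124 and 119 (GS), 92, 86 and 76 (DM) and 529, 1648 and 1097 (NO). All 3 NO samples lay above every other sample, and all 3 DM samples lay below every GS sample. The log2 difference, on the scale log2(normalised count + 1), was 3.53 ± 0.32 (SE) between NO and DM and 3.08 ± 0.32 between NO and GS. Between DM and GS it was -0.45 ± 0.32. Here and below, each SE comes from 1 fit of all 9 samples with 1 spread per gene. It therefore does not measure the spread of only the 2 media compared. For *Anxa8* the SD was 8.49% of the mean in GS, 9.55% in DM and 51.3% in NO. In bulk RNA of this kind, fewer cells of a type and less RNA per cell cannot be told apart, so a level may stand for all cells or for some of them.

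*Anxa3* had the next widest difference. Annexin A3 is an anticoagulant annexin of phagocytes and several epithelia. *Anxa3* (chromosome 5, 96793339 to 96845966, plus strand, ENSMUSG00000029484) had normalised counts of 111, 137 and 87 (GS), 105, 99 and 96 (DM) and 196, 965 and 511 (NO). The NO samples were the 3 highest, and GS and DM overlapped. The log2 difference was 2.05 ± 0.44 between NO and GS and 2.19 ± 0.44 between NO and DM. One of its exons overlaps Gm42603, an unclassified transcript on the same strand with no row in the table.

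*Anxa1* and *Anxa5* were also higher in every NO sample than in every sample of the other media, which *Anxa2*, the other annexin named above for a role outside the cell, was not. *Anxa1*, the glucocorticoid-inducible member of the family, lies on chromosome 19 (20373428 to 20390944, minus strand, ENSMUSG00000024659). It had normalised counts of 76, 114 and 130 (GS), 151, 146 and 152 (DM) and 216, 358 and 283 (NO). It was the only one of the 9 genes whose 3 media were all separate in the order GS, DM, NO, with log2 differences of 0.52 ± 0.24 from GS to DM and 0.90 ± 0.24 from DM to NO. *Anxa5* (chromosome 3, 36448923 to 36475894, minus strand, ENSMUSG00000027712), known as the probe for dying cells, had normalised counts of 202, 159 and 206 (GS), 190, 158 and 219 (DM) and 266, 422 and 361 (NO). GS and DM overlapped with a difference of 0.00 ± 0.21, and NO exceeded each by 0.87 ± 0.21.

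*Anxa11* and *Anxa6* had their highest values in DM. Annexin A11 has a long N-terminal tail that binds S100a6 and the calcium sensor Pdcd6, and it tethers RNA granules to lysosomes. *Anxa11* (chromosome 14, 25842156 to 25886804, plus strand, ENSMUSG00000021866) had normalised counts of 521, 401 and 347 (GS), 860, 876 and 950 (DM) and 538, 426 and 526 (NO). DM was above every other sample and GS and NO overlapped. The log2 difference was 1.10 ± 0.17 between DM and GS, -0.86 ± 0.17 between NO and DM, and 0.24 ± 0.17 between NO and GS. Stretches of *Anxa11* match the pseudogenes Gm2260 over 657 bases at 100% identity and Gm2274 over 609 bases at 99.7%. Since the authors left out reads with several positions, the level of *Anxa11* is uncertain, as are reads in the stretch shared with its antisense gene Anxa11os.

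Annexin A6, whose core is repeated within the protein, takes part in cholesterol handling at late endosomes. *Anxa6* (chromosome 11, 54979108 to 55033445, minus strand, ENSMUSG00000018340) has 26 merged exons, against 12 to 15 in the other 8 genes. It had normalised counts of 2221, 1841 and 1692 (GS), 2717, 2535 and 2837 (DM) and 2059, 1421 and 2152 (NO). As with *Anxa11*, every DM sample was above every GS and NO sample, and GS and NO overlapped. The difference was 0.50 ± 0.17 between DM and GS and -0.54 ± 0.17 between NO and DM.

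*Anxa7* had the opposite pattern. Annexin A7, or synexin, is the other member with a long N-terminal tail and drives membrane fusion with calcium. *Anxa7* (chromosome 14, 20455260 to 20480133, minus strand, ENSMUSG00000021814) had normalised counts of 2890, 3305 and 3543 (GS), 2366, 2075 and 1819 (DM) and 2698, 3285 and 3266 (NO). The DM samples were the 3 lowest, at -0.64 ± 0.15 from GS, and NO lay 0.57 ± 0.15 above DM and overlapped GS.

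*Anxa4*, which assembles into arrays on epithelial membranes, was highest in GS. *Anxa4* (chromosome 6, 86736840 to 86793584, minus strand, ENSMUSG00000029994) had normalised counts of 931, 913 and 869 (GS), 692, 596 and 583 (DM) and 657, 633 and 766 (NO). The difference was -0.54 ± 0.14 between DM and GS and -0.40 ± 0.14 between NO and GS, while DM and NO overlapped. An exon overlaps Gm44036 on the opposite strand.

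*Anxa2*, the plasminogen-binding member that pairs with S100a10, was the only one of the 9 genes whose media overlapped in every pair. *Anxa2* (chromosome 9, 69453620 to 69491795, plus strand, ENSMUSG00000032231) had normalised counts of 1320, 960 and 988 (GS), 1363, 1259 and 1707 (DM) and 622, 1825 and 1198 (NO). The NO samples ranged from below to above all 6 other samples, with a mean of 1215 ± 602 (SD, n = 3). An exon overlaps the antisense gene Gm16144. The authors left out reads over several genes, and counting by strand was not stated. Whether reads in the shared stretch were left out or assigned by strand is therefore not known.

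**Figure D1:**
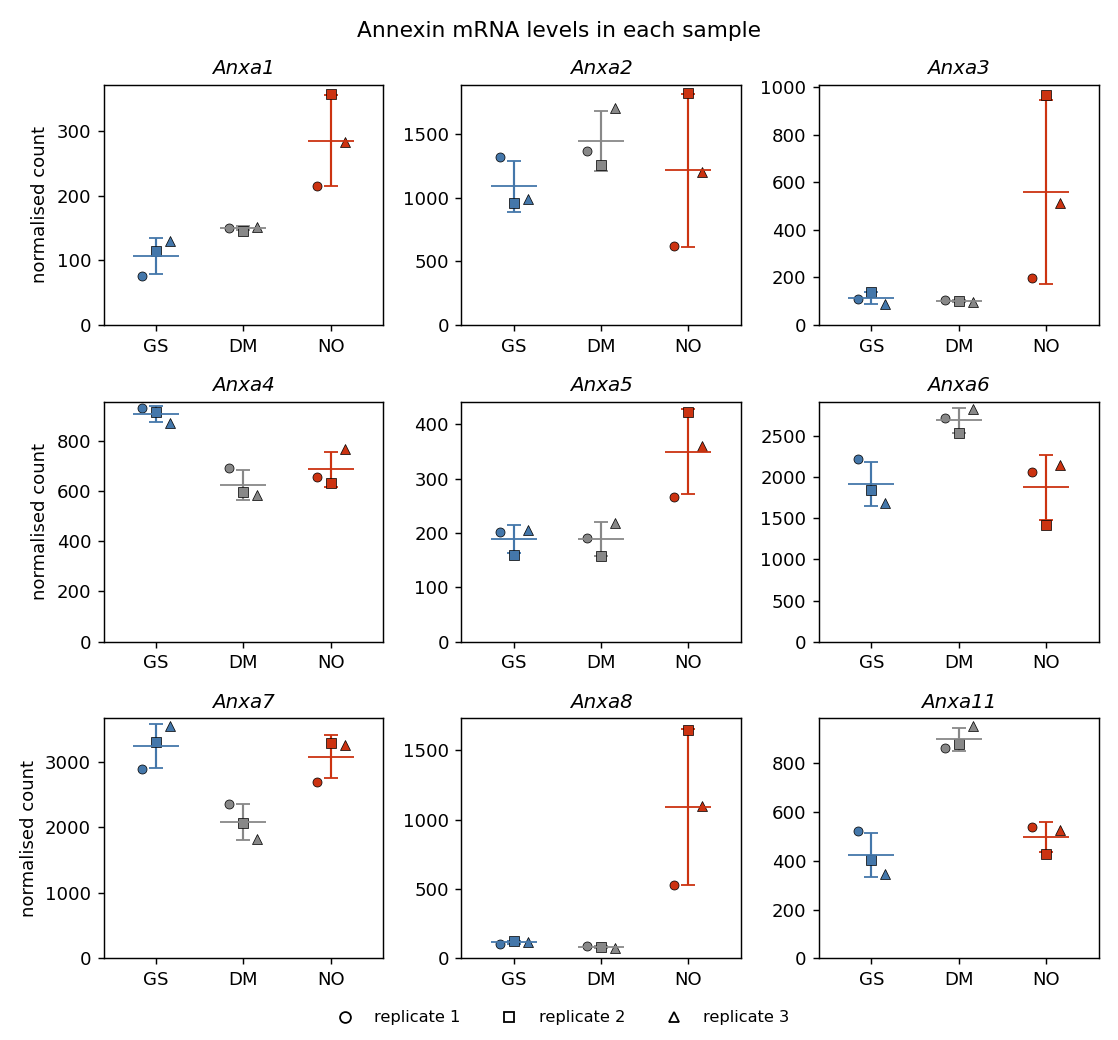
Normalised counts (linear axis from 0) of the 9 annexin genes in GS, DM and NO, with 1 point per sample, the mean as a horizontal line, the SD as bars (n = 3) and a symbol per replicate number. *Anxa1*, *Anxa3*, *Anxa5* and *Anxa8* have all 3 NO samples on top, *Anxa6* and *Anxa11* all 3 DM samples, and NO replicate 2 is the highest NO sample in 6 of the 9 panels.

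Read over the family, each medium had its own set of separated genes. Between DM and GS, 6 of the 9 genes had groups that did not overlap, 3 higher in DM (*Anxa1*, *Anxa6*, *Anxa11*) and 3 lower (*Anxa4*, *Anxa7*, *Anxa8*), where 29.6% of all tested genes did not overlap. Between NO and GS, 5 genes did not overlap, of which *Anxa1*, *Anxa3*, *Anxa5* and *Anxa8* were higher and *Anxa4* lower, against 39.1% of all genes. Between NO and DM, 7 genes did not overlap, 5 higher (*Anxa1*, *Anxa3*, *Anxa5*, *Anxa7*, *Anxa8*) and 2 lower (*Anxa6*, *Anxa11*), against 33.4%. The choice of genes used these values, so nothing is read from the counts.

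The same values can be placed in a fit across all genes, whose thresholds were an adjusted p under 0.05 and an absolute log2 difference of at least 1. For the 9 genes this is a description of size and spread and no test, since these values chose them. Between DM and GS, *Anxa11* alone was past both, where 2.94% of all genes were past them higher and 1.27% lower. Between NO and GS, *Anxa1*, *Anxa3* and *Anxa8* were past both, all higher, against 10.1% of all genes higher and 1.64% lower. Between NO and DM, *Anxa3* and *Anxa8* were past both, again higher, against 6.78% higher and 1.77% lower. Other annexins were past the first threshold with a difference under 1, namely *Anxa4* and *Anxa7* (lower) between DM and GS, *Anxa5* (higher) between NO and GS, and *Anxa1*, *Anxa5*, *Anxa7* (higher) and *Anxa11* (lower) between NO and DM. The calls depended on single samples in places: without GS replicate 3 *Anxa11* was at 0.97 between DM and GS and was not past both, and without NO replicate 1 *Anxa5* (1.05 over GS and 1.06 over DM) and *Anxa1* (1.08 over DM) were. The median difference of the 9 genes was 0.00 between DM and GS, 0.24 between NO and GS and 0.57 between NO and DM, and that of all genes was 0.00, -0.02 and 0.00. The NO comparisons share the NO samples, so their values are not independent of each other.

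**Figure D2:**
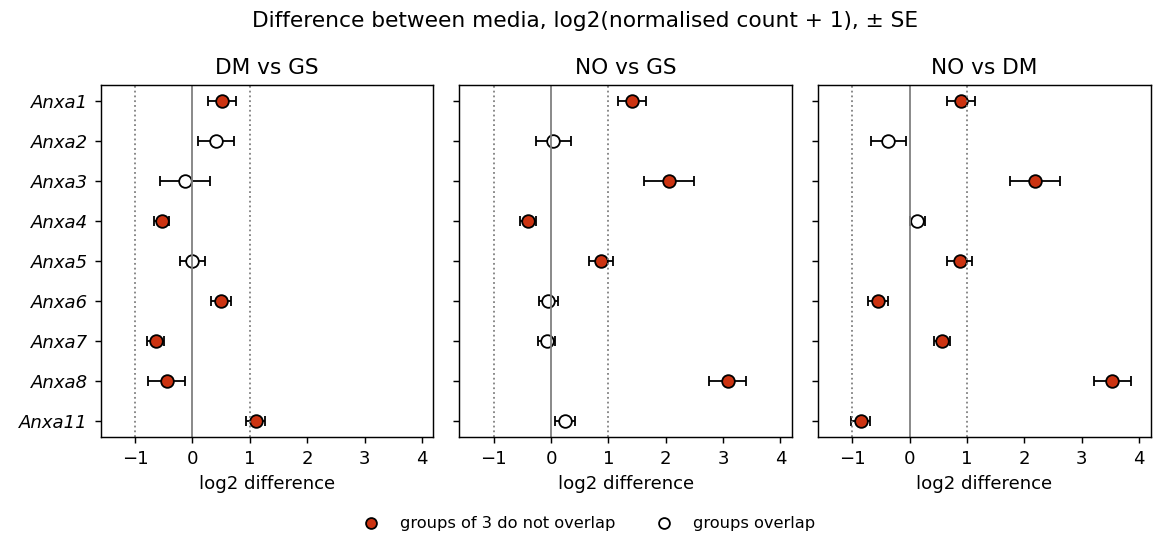
Difference of the mean log2(normalised count + 1) between media for each annexin gene, with the SE of the fit as bars, in 3 panels for DM vs GS, NO vs GS and NO vs DM; filled points mark groups of 3 that do not overlap and dotted lines a difference of 1. *Anxa8* lies farthest to the right in both NO panels, at 3.08 and 3.53, and *Anxa11* changes side between DM vs GS (1.10) and NO vs DM (-0.86).

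The 3 NO samples differed widely from each other. *Anxa3* was 4.92 times as high in NO replicate 2 as in NO replicate 1, *Anxa8* 3.12 times and *Anxa2* 2.93 times. *Anxa1* (1.66 times), *Anxa5* (1.59 times) and *Anxa7* (1.22 times) followed, so that 6 of the 9 genes had the order replicate 2, 3, 1 from high to low, as did 28.7% of all tested genes. *Anxa6*, *Anxa11* and *Anxa4* were lower in NO replicate 2 than in NO replicate 1, at ratios of 0.69, 0.79 and 0.96. On the first principal component of all tested genes, which held 50.3% of the variance, NO replicates 1, 2 and 3 lay at 25.9, 131.2 and 67.1, and GS and DM between -49.1 and -26.0. Without NO replicate 2, the log2 difference between NO and DM was 3.16 for *Anxa8*, 1.65 for *Anxa3*, 0.72 for *Anxa1* and 0.72 for *Anxa5*, and the same genes were past both thresholds. Without NO replicate 1, *Anxa3* stood at 2.80 over DM and 2.67 over GS.

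Over the 9 samples, the genes higher in NO varied together. The Pearson correlation of log2 values was 0.96 between *Anxa8* and *Anxa3*, 0.92 between *Anxa8* and *Anxa5* and 0.86 between *Anxa8* and *Anxa1*. A second set joined *Anxa6* and *Anxa11* at 0.90, and *Anxa7* ran against them, at -0.95 with *Anxa11* and -0.84 with *Anxa6*. The 9 points are 3 media of 3 samples, so these coefficients largely restate the medium means, and are a description.

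To compare levels between genes, normalised counts were divided by the length of merged exons in kilobases. Merged exons join all annotated transcripts of a gene, 11 with 5.991 kb for *Anxa7* and 2 with 1.88 kb for *Anxa8*. Which transcripts the cells used was not measured. The orders between genes, the sums and the shares given below depend on these lengths. In GS, *Anxa6* had 655 ± 93.1 and *Anxa7* 542 ± 55.2 normalised counts per kb (SD, n = 3), and the samples of these leading genes overlapped. *Anxa2* at 292, *Anxa4* at 195, *Anxa5* at 106, *Anxa11* at 102 and *Anxa8* at 61.7 per kb followed, with overlap only between *Anxa5* and *Anxa11*. *Anxa1* at 36.6 and *Anxa3* at 30.7 per kb were the lowest and overlapped.

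In DM, *Anxa6* stood alone at 920 ± 51.9 per kb, and *Anxa2* at 387 and *Anxa7* at 348 overlapped. *Anxa11* moved up to 217 per kb, above *Anxa4* at 134 and *Anxa5* at 106. *Anxa1* at 51.4, *Anxa8* at 45.0 and *Anxa3* at 27.5 per kb ended the order, each above the next in all 3 samples.

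In NO, *Anxa8* came to 580.5 ± 297.6 per kb, next to *Anxa6* at 641 ± 136 and *Anxa7* at 515 ± 55.7, and these 3 overlapped. *Anxa2* had 326, *Anxa5* 197, *Anxa3* 153, *Anxa4* 148, *Anxa11* 120 and *Anxa1* 98.1 per kb. Only *Anxa4* exceeded its next neighbour, *Anxa11*, in all samples.

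Summed over the 9 genes, the GS samples reached 2147, 1963 and 1952 normalised counts per kb, the DM samples 2281, 2101 and 2327, and the NO samples 2150, 3264 and 2917. DM overlapped both other media in this sum, and the highest GS sample, 2147, lay just under the lowest NO sample, 2150. The share of *Anxa1*, *Anxa3*, *Anxa5* and *Anxa8* in it, a group formed after their values were seen, came to 11.7% ± 1.1 (SD, n = 3) in GS, to 10.3% ± 0.2 in DM and to 35.7% ± 10.0 in NO, where replicates 1, 2 and 3 had 26.0%, 46.0% and 35.1%. *Anxa8* alone made up 13.1%, 26.9% and 20.0% in NO, against at most 3.4% in any other sample. *Anxa6* made up 40.7% to 41.6% in DM and 14.9% in NO replicate 2.

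**Figure D3:**
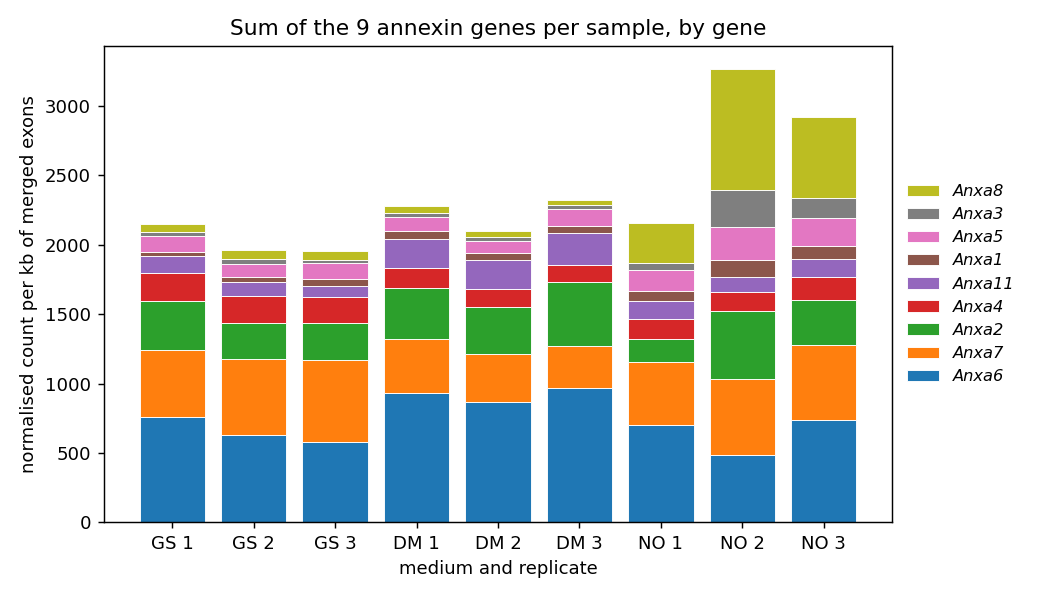
Stacked bars of normalised counts per kb of merged exons for the 9 annexin genes in each of the 9 samples, linear axis from 0, with no error bars since each bar is 1 sample. *Anxa8*, the top segment, takes 13.1% to 26.9% of the bar in the NO samples and at most 3.4% in the others.

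The table holds 3 annexin genes outside the 9. *Anxa9*, which codes for an annexin with impaired calcium binding, had normalised counts of 37, 50 and 45 (GS), 37, 43 and 45 (DM) and 32, 27 and 16 (NO). It was lower in every NO sample than in every other sample, but did not pass the test (NO vs GS -0.84 ± 0.31, limma adjusted p = 0.0796; NO vs DM -0.76 ± 0.31, adjusted p = 0.12), and its exons overlap 6330562C20Rik and Mindy1. *Anxa13*, an intestinal annexin, had 0, 0 and 0 in GS, 1, 1 and 0 in DM, and 5, 27 and 4 in NO, about 7, 21 and 3 reads, and was under the minimum mean. *Anxa10* had at most 1 normalised count in any sample.

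The genes whose pattern over the 9 samples was most like that of an annexin were taken by Pearson correlation of log2 values among 11400 genes with a mean of at least 50. For *Anxa8* they were *Cpped1* (0.995), *Casp14* (0.991) and *C4a* (0.989). *Casp14*, a caspase of the cornifying epidermis, had normalised counts of 13, 15 and 11 (GS), 8, 10 and 4 (DM) and 90, 473 and 187 (NO). For *Anxa3* they were *Afap1l2*, *Fam83d* and *Ctsd*, the lysosomal protease cathepsin D (0.988 to 0.989), and for *Anxa1* they were *Faxc*, *Zfp324* and *Pgrmc1* (0.977 to 0.983). For *Anxa11* they were *Spire2*, *Rassf3* and *Sema5b* (0.978 to 0.98).

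Genes that work with annexins were taken from 7 lists with 81 genes, of which 71 had a row and 59 passed the minimum mean. In limma, 5 of the 59 were past both thresholds higher and 3 lower between DM and GS, 14 higher and 1 lower between NO and GS, and 11 higher and 2 lower between NO and DM. Over all tested genes the shares were 2.94% and 1.27%, 10.1% and 1.64%, and 6.78% and 1.77%. The counts given below for each list stand against the same shares. The median log2 difference of the partner genes was -0.04, 0.50 and 0.46 in these comparisons, and that of all genes 0.00, -0.02 and 0.00. Some low genes, such as *Otof* with at most 1 normalised count outside NO replicates 2 and 3, passed the minimum mean only through NO, so these counts are given as a description. Without NO replicate 2, 11 partner genes were past both thresholds between NO and GS and 9 between NO and DM, and without NO replicate 1 the counts were 20 and 20. Between NO and DM, 8 were past them without DM replicate 1, DM replicate 2 or NO replicate 3.

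Of the S100 partners, 8 of 16 were tested, and between NO and DM *S100a13* alone passed, higher. *S100a6*, the partner of annexin A11, had normalised counts of 59, 64 and 52 (GS), 168, 193 and 217 (DM) and 200, 1044 and 424 (NO). It rose by 1.70 ± 0.44 from GS to DM (limma adjusted p = 0.0403) and by 2.92 ± 0.44 from GS to NO (adjusted p = 0.00144), and the difference between NO and DM was 1.21 ± 0.44 (adjusted p = 0.0844). *S100a10*, the partner of annexin A2, had 1468, 1739 and 2248 in GS, 2013, 2621 and 2476 in DM, and 2000, 3604 and 3462 in NO, and passed in no comparison (NO vs GS 0.71, adjusted p = 0.0503; NO vs DM 0.31, adjusted p = 0.385). *S100a11*, the partner of annexin A1, had 31, 47 and 36 in GS, 24, 28 and 27 in DM, and 53, 73 and 39 in NO, with an adjusted p of 0.0501 between NO and DM. *S100a13*, which goes with release of proteins that lack a signal peptide, fell by 1.94 ± 0.26 from GS to DM (adjusted p = 0.00102) and was 1.29 ± 0.26 higher in NO than in DM (adjusted p = 0.0101). *S100a16* was 1.05 ± 0.33 higher in NO than in GS (adjusted p = 0.0433), a call that held in 3 of 17 alternative fits and was lost with the replicate block (adjusted p = 0.0576). The call of *S100a6* between DM and GS held in 7 of 17.

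On the side of plasminogen, which annexin A2 binds, 5 of 8 genes were tested, and 3 passed between NO and GS and 2 between NO and DM, all higher. *Plaur*, the receptor of urokinase, had normalised counts of 119, 142 and 95 (GS), 375, 413 and 548 (DM) and 411, 1440 and 810 (NO). It was already higher in DM than in GS by 1.90 ± 0.36 (limma adjusted p = 0.00821), and NO overlapped DM (0.83, adjusted p = 0.14). *Plat*, the tissue plasminogen activator, had 19, 20 and 30 in GS, 9, 24 and 26 in DM, and 45, 612 and 115 in NO, a difference of 2.97 ± 0.75 from DM (adjusted p = 0.024) in which NO replicate 2 was far above the others. *Plau*, urokinase, was 2.11 ± 0.56 higher in NO than in DM (adjusted p = 0.0291). Between NO and DM the call of *Plat* held in 12 and that of *Plau* in 11 of 17 alternative fits.

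Of 15 genes on the effector and receptor side of annexin A1, 9 were tested, and 4 were past both thresholds higher between NO and DM. *Nr3c1*, the glucocorticoid receptor, had normalised counts of 439, 475 and 495 (GS), 502, 585 and 514 (DM) and 904, 2226 and 1240 (NO), a difference of 1.35 ± 0.26 from DM (limma adjusted p = 0.00839). *Tsc22d3*, a classical glucocorticoid target, had 51, 27 and 40, then 63, 51 and 68, then 41, 55 and 47, with a difference of -0.34 ± 0.29 between NO and DM (adjusted p = 0.454). *Pla2g4a*, the cytosolic phospholipase A2 that annexin A1 restrains, had 54, 41 and 62 in GS, 52, 29 and 11 in DM, and 102, 175 and 124 in NO. It was past both thresholds between NO and DM (2.30 ± 0.46, adjusted p = 0.00978) and not between NO and GS (1.32, adjusted p = 0.0618). Of the enzymes after it, 2 rose from DM to NO, *Ptgs2* by 2.98 ± 0.50 (adjusted p = 0.00472) and *Alox5*, with 9, 11 and 11 in DM and 71, 703 and 126 in NO, by 4.04 ± 0.69 (adjusted p = 0.00539). *Pla2g4e* was lower in DM than in GS (-1.04, adjusted p = 0.0247), a call that held in 11 of 17 alternative fits, and in NO than in GS (-1.36, adjusted p = 0.00316). *Ptgs1*, the other cyclooxygenase, was higher in DM than in GS (1.36, adjusted p = 0.000899) and had 278, 234 and 235 in NO, below its 356, 384 and 347 in DM (-0.54, adjusted p = 0.0616). The last 2 and *Tsc22d3* were named after their values were seen. The formyl peptide receptor genes were at or near 0: *Fpr-rs4* had at most 1 normalised count in a sample, and *Fpr1*, *Fpr2*, *Fpr3* and *Fpr-rs3* had no row.

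Of the membrane repair genes, 17 of 19 were tested, and 2 passed higher and 1 lower between NO and DM. *Ahnak2*, a giant scaffold protein related to the annexin A2 partner Ahnak, had normalised counts of 299, 292 and 224 (GS), 211, 278 and 225 (DM) and 854, 4965 and 1530 (NO), and rose by 2.98 ± 0.47 over DM (limma adjusted p = 0.00379). *Ahnak* had 9663, 10620 and 9876 in GS, 6116, 7874 and 5682 in DM, and 10417, 40246 and 16742 in NO. It was 1.56 ± 0.37 higher in NO than in DM (adjusted p = 0.0189), a call that held in 13 of 17 alternative fits, while NO and GS overlapped (0.93, adjusted p = 0.0936). *Syt7*, a calcium sensor of lysosome exocytosis, fell by 1.12 ± 0.32 from DM to NO (adjusted p = 0.04), a call that held in 8 of 17 alternative fits and was lost with the replicate block (adjusted p = 0.0582). *Otof*, counted among the calls between NO and GS, had 1, 61 and 20 in NO and 0, 1 and 0 in GS, so that the groups overlapped. *Dysf*, dysferlin, named after its values were seen, had 70, 60 and 40 in GS, 222, 211 and 267 in DM, and 231, 583 and 285 in NO, higher in DM than in GS (2.05 ± 0.32, adjusted p = 0.00279), while NO and DM overlapped (0.54, adjusted p = 0.281).

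All 7 penta-EF-hand genes were tested, and *Capn2*, a calcium-activated protease, was the 1 that passed in either comparison with GS. It had normalised counts of 75, 93 and 74 (GS), 204, 203 and 277 (DM) and 263, 581 and 332 (NO) (DM vs GS 1.48 ± 0.27, limma adjusted p = 0.00684; NO vs GS 2.19 ± 0.27, adjusted p = 0.000676; NO vs DM 0.71, adjusted p = 0.0988). *Pdcd6*, the partner of annexin A11, gave -0.17 ± 0.17 between DM and GS (adjusted p = 0.641) and -0.19 ± 0.17 between NO and DM (adjusted p = 0.473).

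Among the copines, another family that binds phospholipids with calcium, 6 of 9 genes were tested, and 2 passed higher and 1 lower between NO and DM. *Cpne2* had normalised counts of 33, 45 and 48 (GS), 54, 44 and 39 (DM) and 149, 564 and 237 (NO) (2.56 ± 0.40 over DM, limma adjusted p = 0.00379). *Cpne8* was 1.41 ± 0.36 higher (adjusted p = 0.0249) and *Cpne9* 1.68 ± 0.45 lower in NO than in DM (adjusted p = 0.0305). The call of *Cpne8* held in 10 of 16 alternative fits and that of *Cpne9* in 10 of 17. *Cpne7* was 1.70 ± 0.38 higher in NO than in GS (adjusted p = 0.00934). Of the 7 late endosome genes none passed both thresholds in the NO comparisons, and *Lamp2*, named after its values were seen, was lower in DM than in GS (-1.25 ± 0.15, adjusted p = 0.000625).

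**Figure D4:**
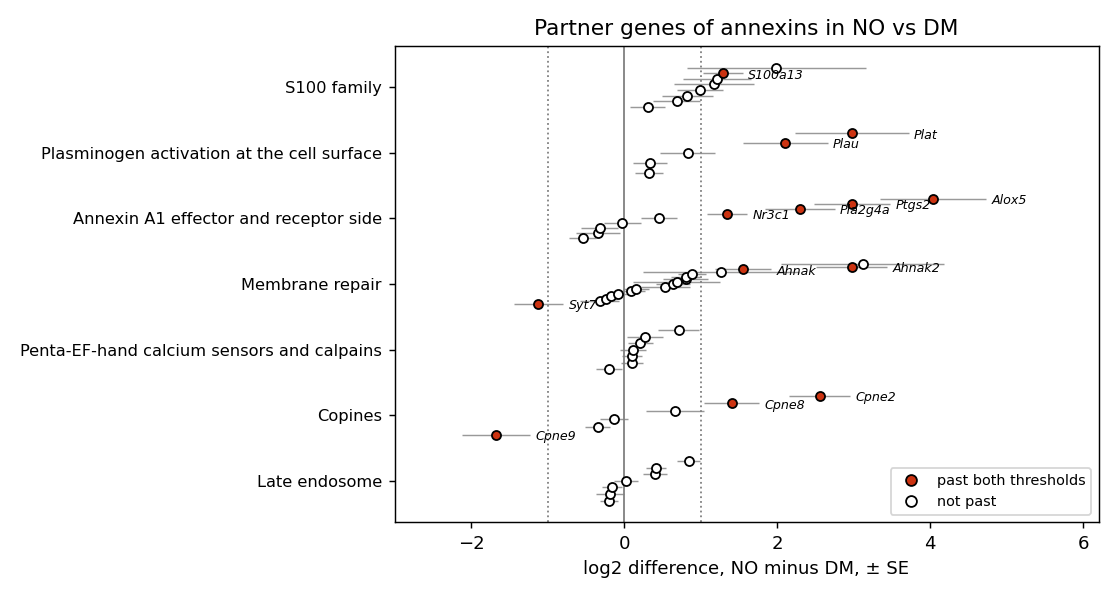
Log2 difference between NO and DM (horizontal axis, with the SE as bars) of each tested partner gene, in 7 lists; filled points are past both thresholds and named, and dotted lines mark a difference of 1. The 11 higher genes run from *S100a13* at 1.29 to *Alox5* at 4.04, the lower ones are *Syt7* and *Cpne9*, whose calls held in 8 and 10 of 17 alternative fits, and the penta-EF-hand and late endosome lists have no filled point. Of the higher calls, *Cpne8* held in 10 of 16 alternative fits, and *Plau*, *Plat*, *Ahnak* and *Nr3c1* in 11, 12, 13 and 16 of 17.

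Some markers of other cell types were highest in the NO samples in which *Anxa3* and *Anxa8* were highest, and other markers of the same lists were not. *Krt5* and *Krt15*, keratins of the basal layer of squamous epithelium, had at most 5 normalised counts in GS and DM, and *Krt5* had 26, 215 and 72 and *Krt15* 34, 455 and 139 in NO. Both passed the minimum mean only through NO, so their calls, counted below, are given as a description. For the counts of markers that follow, 6.78% of all tested genes were past both thresholds higher and 1.77% lower between NO and DM. The shares were 10.1% and 1.64% between NO and GS, and 2.94% and 1.27% between DM and GS. By sign, 9092 of the 18156 tested genes were higher and 9056 lower in NO than in DM. The squamous list summed to 4786 to 6626 in GS, 4199 to 5641 in DM and 4941 to 8969 in NO, mostly *Cdh1* and *Epcam*. Of its 10 markers 6 were tested, and 3 were past both thresholds between NO and DM (*Krt5*, *Krt15* and *Sfn*). By sign 4 were higher and 2 lower, and *Krt17*, with 193, 89 and 160 in NO, was lowest in NO replicate 2. The defining squamous markers *Krt6a* and *Ivl* had at most 4. *Trp63* had 14, 5 and 7 in GS, 1, 1 and 0 in DM, and 2, 4 and 3 in NO. The trophoblast list summed to 1650 to 1700, 1148 to 1299 and 1419 to 3027, with 10 of 12 tested. Of these 4 were past both thresholds higher and none lower between NO and DM. Between NO and GS 3 were higher and 2 lower, and between DM and GS none higher and 3 lower. Its defining markers *Cdx2* (-3.03) and *Eomes* (-1.47) were among those lower in NO than in GS. *Cdx2* had 54, 75 and 46 in GS, 0, 4 and 0 in DM, and 3, 14 and 5 in NO. It passed the minimum mean only through GS, so its calls are given as a description. Between NO and DM the difference was 2.06 for *Cdx2*, with overlapping groups (limma adjusted p = 0.0679), and -0.41 for *Eomes* (adjusted p = 0.227).

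Primitive endoderm markers summed to 12653 to 13341 in GS, 8134 to 10668 in DM and 11060 to 15304 in NO, mostly *Lama1* and *Sparc*. All 9 tested of 13 were higher by sign in NO than in DM, as were 9092 of the 18156 tested genes, with differences as small as 0.19 (*Lama1*) and 0.30 (*Sparc*). Of the 9, 1 was past both thresholds, *Gata6* with 20, 234 and 90 in NO and at most 15 elsewhere, while *Ttr* and *Afp* had at most 3. Between NO and GS, 2 were past both thresholds higher and 1 lower, *Lama1* (-1.09). Endothelial markers summed to 3315 to 4634, 3079 to 3317 and 4069 to 6050, and 2 of 6 tested were past both thresholds between NO and DM, *Tie1* and *Tek*. *Tek* had 557, 1871 and 987 in NO and 145 to 169 in DM, while *Cdh5* had at most 4. *Tie1* was near the floor, with 3, 5 and 5 in GS, 2, 5 and 2 in DM, and 6, 19 and 25 in NO. *Tie1* passed the minimum mean only through NO, so its call is given as a description. Fibroblast markers summed to 6199 to 7273, 6560 to 6883 and 5349 to 8071, mostly *Vim*. Of 6 tested, *Col1a1* was past both thresholds between NO and DM, with 39, 88 and 39 in NO, and *Fap* and *Postn* had at most 2 in any sample. By sign 2 of the 6 were higher and 4 lower in NO than in DM, among them *Col3a1* (-1.25), whose groups did not overlap. Neural progenitor markers summed to 559 to 705, 324 to 494 and 334 to 630, mostly *Nes*, with *Zic1* higher and *Pax6* lower in NO than in DM among 4 tested. Both were near the floor: *Zic1* had 1, 2 and 2 in DM and 4, 42 and 18 in NO, and *Pax6* 13, 8 and 13 in DM and 2, 3 and 1 in NO. *Zic1* passed the minimum mean only through NO and *Pax6* only through DM, so their calls are given as a description. The pluripotency sum was 77534, 45923 and 75574 in NO replicates 1, 2 and 3. The part of these changes in the annexin values was not tested.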

How the data were processed

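Total RNA, depleted of ribosomal RNA, was sequenced on an Ion Torrent Proton instrument. According to the methods of the study and the submitters' processing notes, the authors trimmed reads with Reaper, aligned them to GRCm38 with STAR 2.4.0a, counted exonic reads per gene with featureCounts 1.4.5-p1, leaving out reads over several genes or positions, and normalised with DESeq2. Use of strand was not stated. The deposited values are a score, read counts divided by a size factor and rounded by the authors, not raw counts, so no count model was used. Columns were matched to samples by title.

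Values were analysed as log2(value + 1) with limma 3.58.1 in R 4.3.3, all 9 samples in 1 fit, for genes with a mean above 5, with moderation by trend and Benjamini-Hochberg adjustment over 18156 genes. The thresholds (adjusted p under 0.05, absolute log2 difference of at least 1) are those of the study. The fit was also run on simulated data with 1 dispersion per gene for all 3 media. Such data lack the wider spread of the NO samples, so they do not test its effect on the fit. The 9 genes and all lists were chosen with earlier results of these data known. Named partners were S100a6, S100a10, S100a11 and, per list, up to 4 genes past both thresholds in a NO comparison, by adjusted p in NO vs DM. The 3 most correlated genes were named for annexins whose medium means ranged over at least 1. As a check of pairing, deviations from the medium mean correlated at 0.16, 0.17 and 0.30 between NO and DM samples of equal number, and at -0.23 to 0.05 with GS. Samples of unequal number were not compared and the labels state no pairing, so whether the numbers pair samples is not known. The main fit, which gave the printed SE and adjusted p, left any pairing out and used 1 residual spread per gene for all 3 media. The replicate block was set over all 9 samples, so its comparisons with GS use a pairing that these correlations do not show. A replicate block, other pseudocounts (0.5, 5), minimum means, quantile normalisation, a fit without trend, a fit of 2 media, no minimum difference and each replicate left out were the alternatives. Exons and exon lengths came from GENCODE M21, copies from blastn 2.17.0 (95% identity over 60 bases or more), and promoters from RefSeq on GRCm38.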

Additional observations from a re-analysis of the deposited data

How the results depend on the processing

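The number of annexin genes past both thresholds was 1 between DM and GS, 3 between NO and GS and 2 between NO and DM. With no minimum difference it was 3 between DM and GS and 6 between NO and DM, and 23 partner genes were past the threshold between NO and GS instead of 15. Leaving out 1 replicate at a time, it ranged from 0 (without GS replicate 3, *Anxa11* at 0.97) to 1 between DM and GS, from 3 to 4 between NO and GS, and from 2 to 4 between NO and DM (4 without NO replicate 1, when *Anxa1* at 1.08 and *Anxa5* at 1.06 joined). The 13 partner genes between NO and DM became 8 in a fit of these 6 samples alone and 8 without trend, and ranged from 8 (without DM replicate 1, DM replicate 2 or NO replicate 3) to 20 (without NO replicate 1). With the replicate block the annexin counts were 1, 3 and 2 and the partner counts 8, 14 and 13, so it changed no annexin call, while *S100a16* (NO vs GS) and *Syt7* (NO vs DM) were lost and *Otof* (NO vs DM) gained. Both lower partner calls between NO and DM, *Syt7* and *Cpne9*, were absent in the fit of 6 samples, without trend, and without GS replicate 2, DM replicate 2, DM replicate 3 or NO replicate 3. The higher calls of *Alox5*, *Ptgs2*, *Pla2g4a*, *Cpne2*, *S100a13* and *Ahnak2* between NO and DM held in all 17 alternatives that keep the minimum difference. Of the differences of single annexins under the alternatives, 455 kept their side of the thresholds, 3 came to pass them and 1 no longer passed. No difference past the thresholds changed sign, while small ones did, such as *Anxa2* between NO and GS (-0.32 to 0.46). Quantile normalisation moved the median of all genes to -0.11 between NO and GS, from -0.02.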
